A study of Mus musculus with 32 samples.

Results

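The genes of the surface ectoderm and the early epidermis Tfap2a, Tfap2b, Tfap2c, Trp63, Sostdc1, Cxcl14, Gjb2 and Perp, were followed through single cells of mouse embryos. They are 8 of the 23154 genes in the files. They were chosen by measured values of these files, of which their level in skin epithelial cells is treated as the one used, so their levels in one set of cells against another are described here without a test. Tests were made only on their change with embryonic day, and since it is not known whether that change was in view too, these tests may not be independent of the choice.

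The study profiled single cells of 8 organs (skin, intestine, liver, lung, heart, somite and both brain regions, forebrain and hindbrain) of 7 C57BL/6J embryos, 3 of them at E9.5 and 2 at each later day, to follow organs of the same animals side by side. The embryo is the replicate. Skin cells come from 6 embryos (E9.5 embryos 2 and 3, E10.5 embryos 1 and 2 and E11.5 embryos 1 and 2), of which E9.5 embryo 2 is labelled female and the others male. Skin epithelial cells numbered 7, 10, 7, 15, 18 and 21 in these embryos (78 in all), and skin mesenchymal cells 19, 15, 13, 16, 10 and 4 (77 in all), by the deposited cell classes. The skin libraries are 4: E9.5 embryo 2 was sequenced alone on a HiSeq 2500, E9.5 embryo 3 in a pool of skin, intestine and somite, and both embryos of E10.5 and of E11.5 shared a library for each day, so that day and library cannot be told apart.

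The surface ectoderm is the sheet of cells that covers the embryo and becomes the epidermis with its hair follicles and glands. The AP-2 transcription factors (Tfap2a, Tfap2b and Tfap2c) act in surface ectoderm and in neural crest, and p63, the product of Trp63, is the master regulator of stratified epithelium and switches on genes of adhesion such as Perp. The epidermis begins as a simple epithelium with keratins 8 and 18 and takes on the basal keratins 5, 14 and 15 as it commits to stratification.

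Levels are given as log2(TPM/10 + 1), averaged over the cells of an embryo, where the values that the files call TPM are molecules (UMIs) of a gene per 1000000 molecules counted in that cell. A cell at 10 TPM or more, which is 1 on this scale, is taken to express the gene. The skin epithelial cells carried the epithelial marker list (Epcam, Cdh1, Cldn6, Cldn7, Grb7 and Spint1), with all 6 genes at 1 or more on average and embryo means of the list from 3.10 to 4.40. Of 7 surface ectoderm markers, 4 averaged 1 or more (list means 1.23 to 3.16). Of 8 mesenchymal markers, 6 did so too (list means 0.67 to 2.13, against 3.93 to 5.29 in the skin mesenchymal cells). As list means, 5 endothelial markers were at 0.011 or less and 6 neural crest markers at 0.086 or less in every embryo. In a separate list of neural crest and melanoblast genes, 2 averaged 1 or more in these cells, with Snai2 highest at 1.83. The 7 hematopoietic markers averaged 0.0098 to 0.42 over embryos, the highest in E9.5 embryo 2, with Gata1, Tal1 and Klf1 at 0. Median depth fell from 708213 UMIs per skin epithelial cell at E9.5 to 178865 at E10.5 and 192509 at E11.5. With all cells thinned to 100000 UMIs, the slopes of Cxcl14, Gjb2 and Tfap2c in skin epithelial cells still passed the test. The plot of mean levels by set of cells gives all 8 genes in all sets.

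**Figure D1:**
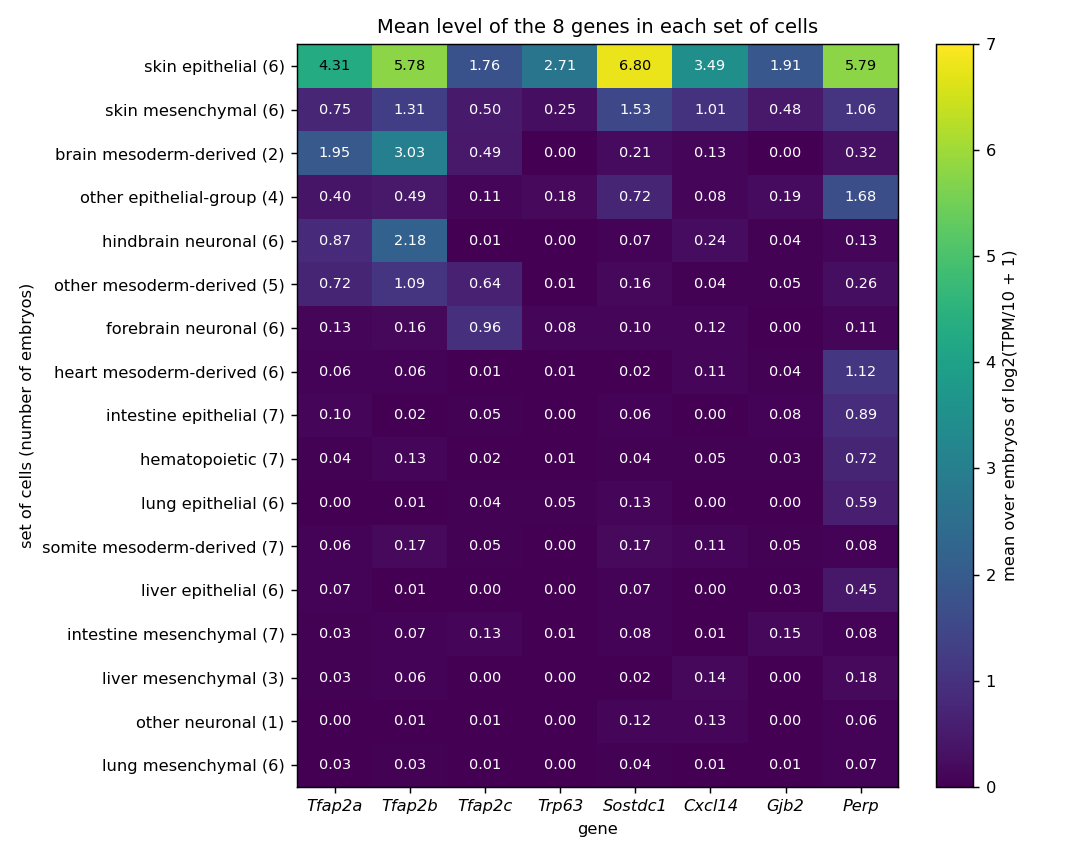
Mean over embryos of log2(TPM/10 + 1) for the 8 genes (columns) in each set of cells (lines, with the number of embryos in brackets), printed in each field and coloured on a linear scale. All 8 genes are highest in skin epithelial cells, from 1.76 for Tfap2c to 6.80 for Sostdc1, and the next levels are those of Tfap2b in mesoderm-derived brain cells (3.03) and hindbrain neuronal cells (2.18).

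Of the regulators, Tfap2a averaged 4.31 ± 0.92 (SD, n = 6 embryos) in skin epithelial cells and was expressed in 72 of 78 cells (92.3%, Wilson 95% interval 84.2 to 96.4). Its embryo means were 2.44 and 4.62 at E9.5 (embryos 2 and 3), 4.89 and 4.59 at E10.5 and 4.63 and 4.70 at E11.5. E9.5 embryo 2 stood below the other embryos, with 3 of its 7 cells under the level of expression. The gene lies on chr13:40715302-40738376 (GRCm38, minus strand) and overlaps 3 antisense genes, 1 of them counted in the files, and since no source states whether counting used strand, their reads may not be told apart. Tfap2a did not pass the test for a change with day (slope 0.56 per day, SE 0.24, limma adjusted p = 0.29).

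Tfap2b was expressed in 78 of 78 skin epithelial cells, with embryo means of 5.36 and 6.01 at E9.5, 5.42 and 5.35 at E10.5 and 6.41 and 6.10 at E11.5. This is a narrow range (SD 0.46), and the slope on day was 0.28 (SE 0.25, limma adjusted p = 0.80). The gene is at chr1:19208914-19238576 on the plus strand. Both Tfap2a and Tfap2b were also present outside the skin. In hindbrain neuronal cells 20.2% of 183 cells expressed Tfap2a and 45.9% expressed Tfap2b. In mesoderm-derived brain cells, which number 16, the shares were 62.5% and 75.0%, and the Tfap2a mean of E10.5 embryo 1 there (2.64) was above the lowest skin epithelial embryo.

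Tfap2c (chr2:172549593-172558622, plus strand), the AP-2 factor that is also used in trophoblast and germ cells, was the weakest of the AP-2 genes in skin epithelial cells. Its embryo means were 2.38 and 2.02 at E9.5, 1.67 and 2.75 at E10.5 and 1.29 and 0.47 at E11.5. Both E11.5 embryos lay below all E9.5 and E10.5 embryos. It fell by 0.66 per day (SE 0.16, limma adjusted p = 0.016), and between E10.5 and E11.5 it fell by 1.33 (SE 0.31, limma adjusted p = 0.029), a step that was chosen for a look after the slopes were seen. The gene was expressed in 12 of 17 cells at E9.5, 17 of 22 at E10.5 and 13 of 39 at E11.5, and in 87.5%, 70.6% and 38.7% after thinning of cells to 100000 UMIs, which left out 1, 5 and 8 cells. This call is not firm: the slope missed the threshold without E9.5 embryo 2 or without either E11.5 embryo, in both edgeR fits, without the HiSeq 2500 embryos, and when skin cells were fitted alone (adjusted p up to 0.92 over all alternatives, with slopes from −1.32 to −0.39). The step was lost in skin cells alone (adjusted p = 0.47), in edgeR (1.0), in thinned cells (0.084), with log2(TPM + 1) (0.097), and without E10.5 embryo 2, E11.5 embryo 2 or any 1 of the E9.5 embryos (−1.33 to −0.79).

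Trp63 (chr16:25683763-25892102, plus strand, with a small nuclear RNA gene and a pseudogene inside it) was expressed in 71 of 78 skin epithelial cells (91.0%). Its embryo means were 2.08 and 2.73 at E9.5, 2.17 and 2.83 at E10.5 and 3.06 and 3.42 at E11.5. The E11.5 embryos were the highest, but the slope of 0.42 per day (SE 0.13) had a limma adjusted p of 0.087. Without E9.5 embryo 3 it passed (0.60, adjusted p = 0.031). In all other sets Trp63 was near 0: the next level was 0.25 in skin mesenchymal cells, and 0 of 183 hindbrain neuronal cells expressed it, which allows a share of up to 1.64% of cells at 10 TPM or more, for counting error alone.

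**Figure D2:**
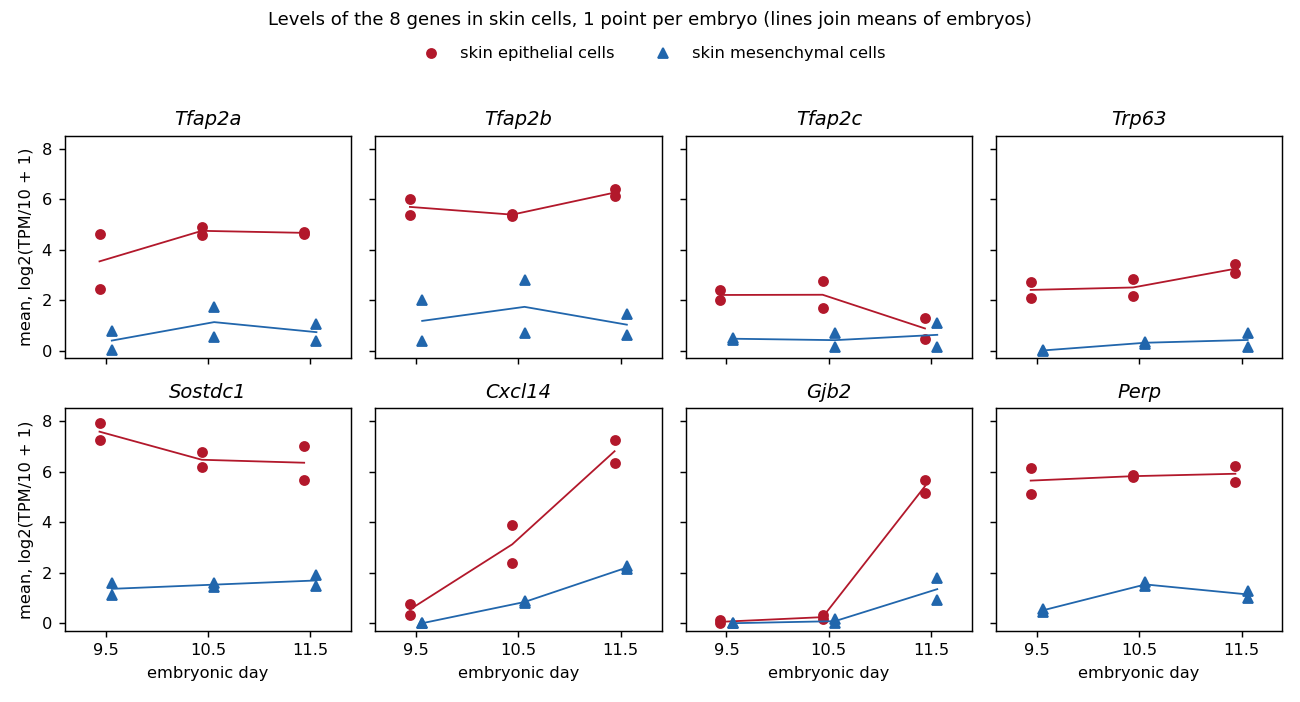
Embryo means of log2(TPM/10 + 1) by embryonic day for the 8 genes, in skin epithelial cells (circles) and skin mesenchymal cells (triangles), with 1 point per embryo and lines through the means of the embryos of a day. Cxcl14 climbs on both days and Gjb2 between E10.5 and E11.5, while Tfap2b, Sostdc1 and Perp stay above 5 in all 6 embryos.

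Among the secreted proteins, Sostdc1, an inhibitor of Bmp and Wnt signals that restrains placode formation, had the most molecules of the 8 over the summed skin epithelial cells (1592 TPM). Its embryo means were 7.92 and 7.24 at E9.5, 6.77 and 6.17 at E10.5 and 7.03 and 5.67 at E11.5, and 76 of 78 cells expressed it (97.4%). The E9.5 embryos were above the 4 later ones, with a slope of −0.62 per day (SE 0.19) that did not pass (limma adjusted p = 0.094). It passed without E11.5 embryo 1 (−0.98, adjusted p = 0.0090). Sostdc1 lies on chr12:36314139-36318452 (plus strand).

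Cxcl14, a chemokine of epithelia, had the highest slope on day of all genes tested in the skin epithelial cells on the log2(TPM/10 + 1) scale. Its embryo means were 0.33 and 0.76 at E9.5, 2.37 and 3.87 at E10.5 and 7.26 and 6.35 at E11.5. The days did not overlap. Counted over summed molecules, the level went from 3.75 and 27.6 TPM through 213 and 466 to 2042 and 1095. The slope was 3.13 per day (SE 0.18, limma adjusted p = 7.40e-13), rank 1 of 14791 genes, and it passed in each of the 19 alternatives (2.86 to 4.32). In the fit of skin cells alone its SE was 0.24 and its limma adjusted p 0.0033. Both steps passed the test: 2.58 from E9.5 to E10.5 (SE 0.36, limma adjusted p = 0.00061) and 3.69 from E10.5 to E11.5 (SE 0.36, limma adjusted p = 5.99e-07). The first of these steps missed the threshold without E9.5 embryo 2 (adjusted p = 0.086) and in the fit of skin cells alone (0.12), and the second in edgeR (0.52).

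Gjb2 encodes connexin 26, a gap junction channel of the epidermis and the inner ear. It was at 0.00 and 0.11 at E9.5, at 0.31 and 0.17 at E10.5 and at 5.69 and 5.16 at E11.5. The gene was near 0 until E10.5 and high in both E11.5 embryos: in E9.5 embryo 2 it had 0 UMIs, in the next 3 embryos 10, 6 and 4 UMIs, and in the E11.5 embryos 3005 and 1871. In TPM of summed molecules this is 2.0, 3.03 and 1.56 in the 3 embryos with few UMIs, against 773 and 495. Its slope of 2.68 per day (SE 0.29, limma adjusted p = 3.85e-07) ranked 2 of 14791. In the fit of skin cells alone the SE of this slope was 0.50 and its limma adjusted p 0.031. On the ratio scale of edgeR with TMM scaling the slope of Gjb2 (4.96) was above that of Cxcl14 (3.34). A step of 5.18 (SE 0.24, limma adjusted p = 8.99e-13) from E10.5 to E11.5 passed in 13 of 13 alternatives, whereas that from E9.5 to E10.5 was 0.19 (SE 0.24, limma adjusted p = 0.995). A line over the 3 days averages these unequal steps. The E11.5 embryos share their library, so the step stands on 2 embryos and 1 library.

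Since both genes rise in the same cells, the 250 bases before the start of their RefSeq transcripts (GRCm38.p6) are shown. RefSeq promoters matched 4 of the 8 genes (Tfap2a with 2 promoters, Tfap2b, Cxcl14 and Gjb2). Capitals mark a match to GCCNNNGGC, a letter pattern of AP-2 sites that reads the same on both strands. The Cxcl14 stretch is chr13:56296552-56296801 and that of Gjb2 is chr14:57104703-57104952, each given 5′ to 3′ on the minus strand, on which both genes lie.
Cxcl14: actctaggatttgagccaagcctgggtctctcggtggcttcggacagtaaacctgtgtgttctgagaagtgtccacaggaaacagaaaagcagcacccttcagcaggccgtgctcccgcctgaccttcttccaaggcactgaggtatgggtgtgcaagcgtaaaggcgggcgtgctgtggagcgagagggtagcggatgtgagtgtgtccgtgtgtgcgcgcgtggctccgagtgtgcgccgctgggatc
Gjb2: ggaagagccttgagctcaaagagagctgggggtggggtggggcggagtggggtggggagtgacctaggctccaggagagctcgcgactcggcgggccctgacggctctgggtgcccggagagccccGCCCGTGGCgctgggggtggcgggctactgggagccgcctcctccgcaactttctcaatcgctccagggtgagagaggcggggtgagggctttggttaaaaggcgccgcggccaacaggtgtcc
The Gjb2 stretch holds 1 match, GCCCGTGGC, beginning 124 bases before the start, and the Cxcl14 stretch holds 0. The pattern is found in 13.7% of the 32851 promoters of the same length. GGGCGG (either strand) occurs 2 times before Gjb2 and 0 times before Cxcl14, against 32.7% of promoters with a match, and TATAAA (12.4% of promoters) occurs before neither. The Gjb2 stretch is 69.2% G and C and the Cxcl14 stretch 59.6%. These are matches of letters only. The transcribed genes span chr13:56288643-56296551 (Cxcl14) and chr14:57098600-57104702 (Gjb2).

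Perp, a tetraspan protein of desmosomes and a target of p53 and p63, was expressed in 78 of 78 skin epithelial cells. Its embryo means were 5.13 and 6.16 at E9.5, 5.87 and 5.77 at E10.5 and 6.24 and 5.59 at E11.5 (chr10:18845020-18857073, plus strand). The days overlapped, with a slope of 0.14 (SE 0.21, limma adjusted p = 0.98). Perp was the member most spread over other sets: 34.3% of heart mesoderm-derived cells, 33.0% of intestine epithelial cells and 22.8% of hematopoietic cells expressed it.

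In all, 3 of the 8 genes (Cxcl14, Gjb2 and Tfap2c) passed the test for a change with day in skin epithelial cells, where 1.81% of all 14791 genes tested passed (268 genes, 0.602% higher and 1.21% lower). The calls of Cxcl14 and Gjb2 held in all 19 alternatives, and that of Tfap2c was lost in 7 of 19. The median slope was 0.35 over the 8 genes and −0.013 over all genes. Of the 268 genes 89 rose and 179 fell, a split that depends on the scale: 16 rose and 63 fell with edgeR and TMM scaling. In the single steps 0.277% (E9.5 to E10.5) and 0.777% (E10.5 to E11.5) of genes passed, with 1 and 3 of the 8 genes among them.

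Until E10.5 more cells expressed Cxcl14 than Gjb2. At E9.5, 1 of 17 cells expressed both Cxcl14 and Gjb2, 4 expressed Cxcl14 alone and 12 neither. At E10.5, 2 of 22 cells expressed both, 15 Cxcl14 alone and 5 neither. At E11.5 all 39 cells expressed both. No cell on any day expressed Gjb2 without Cxcl14, which the plot of single cells shows as an empty upper left corner. Gjb2 was expressed in 1 cell at E9.5 and 2 at E10.5, and at E11.5 all cells expressed both. These counts leave little room for such a cell, and no order of the 2 genes within cells is read from them. In the E10.5 cells Cxcl14 ran from 0 to 7.86 (median 3.45), and in the E11.5 cells from 1.80 to 8.94 (median 7.05). Over the 78 cells the correlation of the 2 genes was r = 0.76, and 0.18 once each embryo's mean was taken out. The pair with the most negative value was Tfap2c with Gjb2 (−0.47, and −0.11 within embryos), and Tfap2a with Perp kept the most within embryos (0.39 and 0.32). These are descriptions over cells that share libraries and depth.

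**Figure D3:**
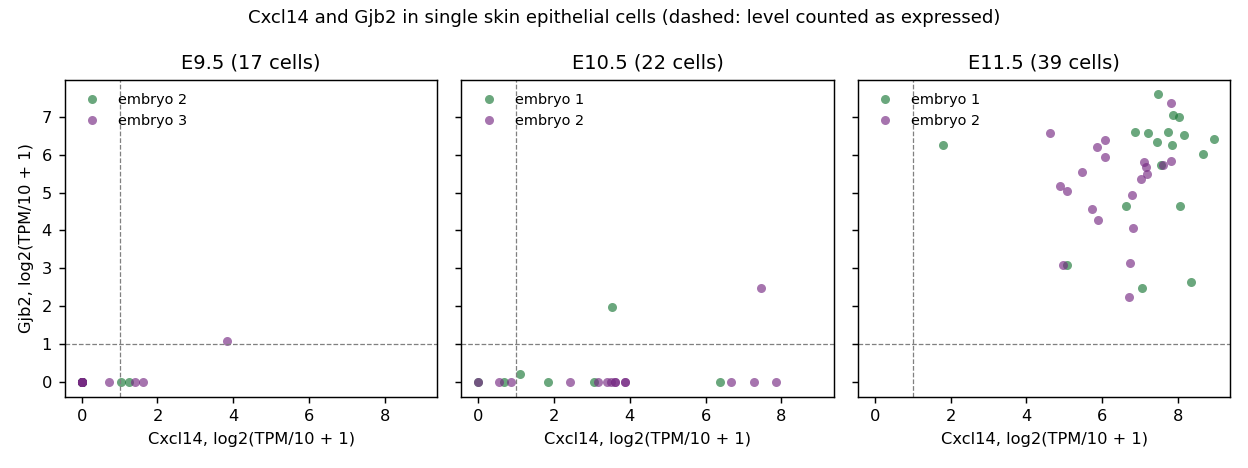
Cxcl14 (horizontal) against Gjb2 (vertical), both as log2(TPM/10 + 1), in single skin epithelial cells of E9.5, E10.5 and E11.5, with 1 point per cell coloured by embryo and dashed lines at the level of expression. At E10.5, 17 of 22 cells are past the line for Cxcl14 and 2 past that for Gjb2, and at E11.5 all 39 cells are past both.

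Most of the 8 genes were expressed together in single skin epithelial cells, but all 8 in few. Of 78 skin epithelial cells 77 expressed 5 or more of them (median 7, range 4 to 8), and 14 expressed all 8. These 14 were 1 of 17 cells at E9.5, 2 of 22 at E10.5 and 11 of 39 at E11.5. The genes are treated as chosen for their level in these cells, so the counts follow in part from the choice and nothing is read from them. Among skin mesenchymal cells 8 of 77 (10.4%) expressed 5 or more, and among hematopoietic cells, which should lack these genes, 2 of 246, both of them among the 9 hematopoietic cells of the skin. In the 246 hematopoietic cells (median 437877 UMIs, against 226003 in skin epithelial cells) the shares for members other than Perp were 0.41% to 4.07%. Pooled over days, the shares in skin epithelial cells, 53.8% for the lowest (Tfap2c and Gjb2, 42 cells each), were above that. For Gjb2 the pooled share came mostly from E11.5, with 1 of 17 cells at E9.5, 2 of 22 at E10.5 and 39 of 39 at E11.5. The Gjb2 counts at E9.5 and E10.5 are too few to compare with the hematopoietic shares.

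Skin epithelial cells ranked highest of 15 sets with at least 3 embryos for each of the 8 genes. The mesoderm-derived brain cells, with 2 embryos, are not in this ranking. They were at 1.95 for Tfap2a and 3.03 for Tfap2b, and for Tfap2a 1 of their embryos (2.64) was above the lowest skin epithelial embryo (2.44). Within the ranking, skin epithelial embryos did not overlap with those of the next set for Tfap2a and Tfap2b (next hindbrain neuronal cells, 0.87 and 2.18), Trp63 and Sostdc1 (next skin mesenchymal cells, 0.25 and 1.53) and Perp (next the remaining cells of the epithelial group, 1.68). Skin epithelial embryos did overlap with the next set for Tfap2c (next forebrain neuronal cells, 0.96, with 31.5% of 184 cells expressing it), and for Cxcl14 and Gjb2 (next skin mesenchymal cells, 1.01 and 0.48), whose early embryos were low. Against skin mesenchymal cells, all 6 epithelial embryos were above all 6 mesenchymal ones for 5 of the 8 genes, beside 3.14% of all genes. Against epithelial cells of intestine, liver and lung this held for 7 of the 8 genes (all but Gjb2), beside 1.27%. The list is treated as chosen for this contrast, and nothing is read from these counts.

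In skin mesenchymal cells the members were low but not absent. Embryo means of Cxcl14 were 0.00 and 0.00 at E9.5, 0.87 and 0.81 at E10.5 and 2.15 and 2.26 at E11.5, and those of Gjb2 were 0.00, 0.00, 0.00, 0.16, 0.90 and 1.80 in the same order of embryos. In both genes the E11.5 embryos were the highest. Cxcl14 passed the test there (slope 1.10, SE 0.18, limma adjusted p = 0.00065), as 1 of the 8 genes beside 0.595% of all genes, but not when skin cells were fitted alone (adjusted p = 0.15). Gjb2 did not pass (slope 0.67, SE 0.29, limma adjusted p = 0.45). At E11.5 the mesenchymal level of Cxcl14 in TPM was 2.34% and 3.47% of the epithelial level of the same embryo, and that of Gjb2 1.24% and 4.50%. The 6 epithelial markers stood at a median of 1.37% and 2.91% in these embryos, and over all 6 embryos at 0.61% to 3.53%. Pooled without regard to day, the 9 hematopoietic cells of the skin held Cxcl14 at 12.9 TPM and the 77 mesenchymal cells at 6.52 TPM. The mesenchymal cells held 0 UMIs of Cxcl14 at E9.5 and were at 47.7 and 38.0 TPM in the E11.5 embryos, so the pooled values are not matched by day. The part of RNA from epithelial cells in the mesenchymal values was not tested.

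Several mesenchymal values stood above the highest of the 6 epithelial markers in the same embryo. In E10.5 embryo 1, Tfap2a and Tfap2b were at 31.3% and 39.9% of the epithelial level, with 7 and 10 of 13 mesenchymal cells expressing them, and Trp63 was at 5.56%, beside a highest value of 5.17% for the epithelial markers. Tfap2b was at 11.3% in E9.5 embryo 3, and in E11.5 embryo 2 Tfap2a was at 34.0 TPM in mesenchymal against 324 TPM in epithelial cells (26 UMIs, in 2 of 4 mesenchymal cells). Tfap2c was at 10.01% in E9.5 embryo 2 and 12.1% in E10.5 embryo 2, and in E11.5 embryo 2, where 4 mesenchymal cells held 18 UMIs against 33 UMIs in 21 epithelial cells, it was at 270%. Krt8 and Krt18 are not among these markers. Krt8 was at 10.26% in E9.5 embryo 2 and Krt18 at 12.6% in E9.5 embryo 3, above the members named there. In the later embryos named here both keratins were below these members. Neural crest cells also use AP-2 factors, and the list of 6 neural crest markers averaged at most 0.066 in the mesenchymal cells of any embryo. The part of neural crest cells, or of cells derived from them, in the AP-2 values was not tested.

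The difference of the slopes between epithelial and mesenchymal skin cells was 2.03 per day for Cxcl14 (SE 0.26, limma adjusted p = 4.60e-05) and 2.01 for Gjb2 (SE 0.42, limma adjusted p = 0.013), 2 of the 8 genes beside 0.338% of all genes. These differences depend on the scale. On the ratio scale of edgeR they were −0.43 for Cxcl14 and 0.21 for Gjb2 per day, both with an adjusted p of 1.0. In the fit of skin cells alone the adjusted p was 0.18 and 0.50, with log2(TPM + 1) it was 0.058 and 0.20, and without both HiSeq 2500 embryos it was 0.039 for Cxcl14 and 0.16 for Gjb2. The Gjb2 call was also lost without E9.5 embryo 2 or either E11.5 embryo.

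Against epithelial cells of intestine, liver and lung the slopes were higher by 3.13 for Cxcl14 (SE 0.21, limma adjusted p = 3.59e-11) and by 2.71 for Gjb2 (SE 0.34, limma adjusted p = 8.36e-06), again 2 of 8 beside 1.16% of all genes. These genes had few or no UMIs in the other epithelial cells (0 UMIs of Cxcl14 in 109 intestine cells), and edgeR gave an adjusted p of 1.0 for both differences. The difference for Tfap2c was −0.67 (SE 0.18, limma adjusted p = 0.060).

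Keratins changed between E10.5 and E11.5, on the same day as Gjb2. Of 29 genes tested in a list of surface ectoderm and basal epidermis, 3 rose with day in skin epithelial cells and 2 fell, with a median slope of 0.027 beside −0.013 over all genes. The genes that rose were the basal keratins: Krt15 (slope 2.34, rank 3 of all genes, with embryo means of 0.37, 0.35, 0.54, 1.48, 5.39 and 4.67), Krt14 (1.26) and Krt5 (1.06). From E10.5 to E11.5 they were higher by 4.02, 2.35 and 2.03, with limma adjusted p-values of 5.80e-09, 2.29e-06 and 9.30e-10, and from E9.5 to E10.5 none of the 3 passed (0.65, 0.16 and 0.096). Krt5 was expressed in 0 of 17 cells at E9.5, 1 of 22 at E10.5 and 24 of 39 at E11.5, and Krt15 in all 39 cells at E11.5. The genes that fell were Krt18, a keratin of simple epithelia (−1.12, with 6.78 and 6.08 at E9.5, 6.86 and 6.12 at E10.5 and 4.16 and 4.23 at E11.5), and Foxi2, a transcription factor of cranial ectoderm (−0.64). Krt18 fell by 2.30 in the later step (SE 0.49, limma adjusted p = 0.016). Krt8, the partner of Krt18, went from 6.90 and 6.51 at E9.5 to 5.48 and 5.32 at E11.5 and did not pass (limma adjusted p = 0.22). Other abundant genes of this list were Wnt6 (5.69) and Id3 (5.03).

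Connexins changed in both directions. Gjb6, which encodes connexin 30 and lies 18600 bases from Gjb2, rose with a slope of 1.65 (0.00, 0.12, 0.00, 0.46, 3.77 and 2.96 in the 6 embryos), and by 3.13 between E10.5 and E11.5 (SE 0.17, limma adjusted p = 2.68e-11). Gjb5 fell by 0.74 per day (1.75, 1.79, 0.64, 0.93, 0.14 and 0.45). Gja1, connexin 43, was at 2.71 to 3.21 in all embryos. Of the list genes called here, Krt15 and Gjb6 alone also passed in edgeR with TMM scaling, and Krt14, Krt18 and Foxi2 did not pass in the fit of skin cells alone. In edgeR the later step of Krt15 and Gjb6 did not pass either (adjusted p = 0.28 and 0.83), nor did that of Krt14, Krt5 and Krt18. The Krt18 slope was also lost without either E11.5 embryo (−0.93 and −0.96), its later step without any 1 of the E10.5 or E11.5 embryos (−2.67 to −1.93), and the Foxi2 slope without E11.5 embryo 1 (−0.45).

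**Figure D4:**
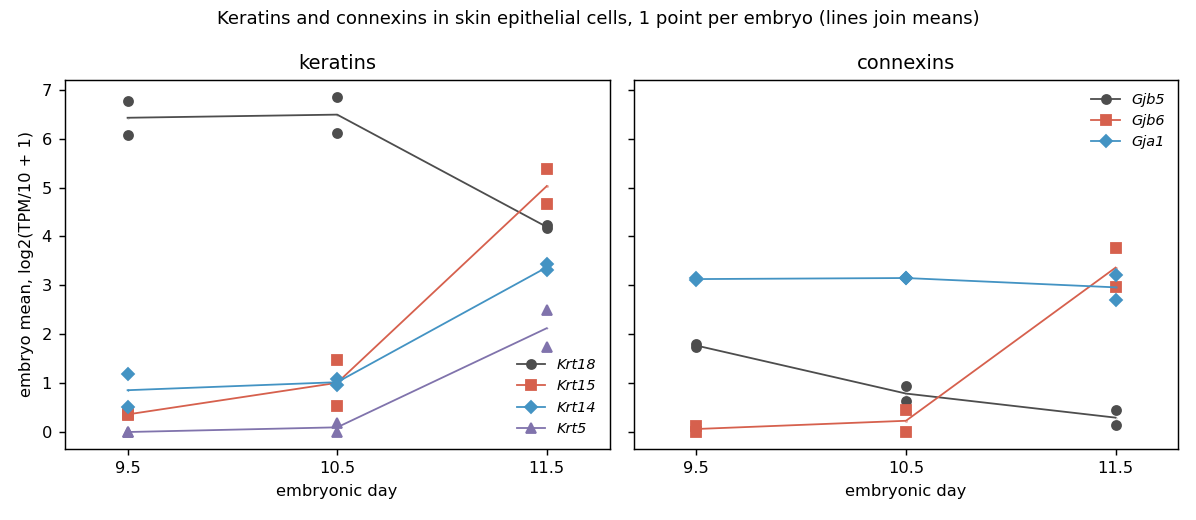
Embryo means of log2(TPM/10 + 1) in skin epithelial cells by embryonic day for 4 keratins (left) and 3 connexins (right), with 1 point per embryo and lines through the means of the embryos of a day. Krt15, Krt14, Krt5 and Gjb6 are higher at E11.5, Krt18 and Gjb5 are lower, and Gja1 lies between 2.71 and 3.21.

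In the other gene groups of the epidermis 0 to 4 genes per list passed in limma. With edgeR and TMM scaling 0 genes passed in each of these lists, so the rises named here rest on the limma scale. Of 20 tested genes that p63 regulates in basal epithelium and basement membrane, 1 rose, Col17a1, the hemidesmosomal collagen (slope 0.73), and 0 fell, while Sfn (5.07), Itgb1 (4.00) and Npnt (3.56) had the highest levels. Of 14 genes of desmosomes and cornified envelope 0 passed in limma and 0 in edgeR, with 3 and 3 at an unadjusted p under 0.05 (levels of Ppl 2.45, Jup 2.36 and Krt10 2.35). In the periderm list, named for the flat outer layer of the embryonic skin, 2 of 8 rose (Gabrp by 0.95 and Upk1b by 0.91 per day), and Krt7 was at 6.00. Of 26 Wnt, Bmp and Eda genes of skin placodes 4 rose, all of them Wnt ligands: Wnt10a (0.98), Wnt3 (0.65), Wnt7a (0.65) and Wnt3a (0.54). Of these Wnt3a was also called in skin cells alone. Wnt3 was lost without E9.5 embryo 3 (0.24) or E11.5 embryo 1 (0.57), Wnt7a without E11.5 embryo 2 (0.47) and Wnt3a without either E11.5 embryo (0.47 each). The chemokine list had 1 of 10 higher, Ackr3, a scavenger receptor of Cxcl12 (0.92), and Cxcl12 itself was at 0.87. Leaving out E9.5 embryo 2 or any 1 of the E10.5 and E11.5 embryos ended the Ackr3 call (lowest slope 0.50, without E9.5 embryo 2). Neither Trp53 (4.19) nor Trp73 (0.075), the other p53 relatives tested, passed with a slope of 0.5 or more, and 0 of 11 neural crest genes passed in limma or edgeR (2 and 2 at an unadjusted p under 0.05), with Snai2 at 1.83 and Sox9 at 1.42. The medians of the slopes of these lists ran from −0.044 (connexins) to 0.14 (p63 targets).

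Over 91 embryo means of all sets of cells, the genes most like the members in pattern were found among 12225 genes by Pearson correlation. Among the nearest 3 of Trp63 were Wnt6 and Kremen2 (r = 0.95 each), and among those of Sostdc1 Wnt6 and 3830417A13Rik (0.97 each). Sfn was among the nearest 3 of Tfap2a (0.89), Tfap2b (0.84) and Perp (0.93). Cxcl14 and Gjb2 had other neighbours: Cbr2, Krt15 and Krt14 for Cxcl14 (0.96, 0.95 and 0.93), and Krt5, Gjb6 and Krt15 for Gjb2 (0.97, 0.96 and 0.96). Among the nearest 3 of Tfap2c were Dlx2 and Sod3 (0.74 each). For the mean of the 8 genes the nearest were Wnt10a and Wnt6 (0.95 each). Between the members the correlation ran from 0.21 (Tfap2c with Gjb2) to 0.96 (Tfap2a with Tfap2b). Over single skin epithelial cells that of Tfap2a with Tfap2b was 0.23, and 0.19 within embryos. Skin epithelial cells gave 6 of the 91 embryo means, and the members are treated as chosen for their level there. High correlations between members therefore follow in part from the choice. The points share libraries and embryos, and the correlations are descriptions.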

How the data were processed

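Cells were picked by mouth pipette, given a barcode per cell and a UMI per molecule when reverse transcribed, and sequenced from the 3′ end of the transcripts in pooled libraries. Per the labels and the methods of the study, the authors aligned reads with TopHat2 2.0.12 to mm10 and counted them with HTSeq. Its version, the annotation and the use of strand are not given in the sources used here. The deposited values, named TPM by the authors, are CPM, the share of a gene in the UMIs of its cell times 1000000, to 0.01, with no gene length in them. Of 1916 cells 1819 were kept by the authors, and their groups were taken from the cell table of the study. Whole UMIs were recovered for 100% of values above 0 (tolerance 0.05), and the sums equalled the totals of that table in 1916 cells. In 14 pairs of columns, cells numbered 95 and 96, the values were identical, and the second copy was dropped, which left 1805 kept cells with 20326 to 2524348 UMIs (median 306271). All 96 cell numbers recur across libraries.

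Embryo values are means of log2(TPM/10 + 1) over the cells of a set (3 or more). The 10 in this scale acts as a pseudocount, so low genes show compressed differences. Slopes on day were fitted with limma 3.58.1 in R 4.3.3 (eBayes with trend) to 31 embryo means of 5 sets (skin epithelial, skin mesenchymal, and intestine, liver and lung epithelial cells), with an intercept and a slope per set and 21 residual degrees of freedom. Each gene had 1 residual variance over the 5 sets, so its SE is not the spread between skin embryos alone. For Cxcl14 and Gjb2 it also draws on epithelial sets of other organs, where these genes were near 0. Genes expressed in at least 3 cells were tested, 2-sided, and called at a Benjamini-Hochberg adjusted p under 0.05 over all genes with a slope of at least 0.5 per day; steps between days came from the same model with day as a factor and the same limits. On simulated data the fit recovered 100% of slopes of 2 and 22.8% of slopes of 1 for skin epithelial cells (14067 genes), with 2 false calls. Slopes were simulated only in genes at 3 or more on this scale in skin epithelial cells, with a set spread between embryos and no library effect. These figures therefore do not cover lower genes such as Tfap2c, or changes of library with day. Alternatives were edgeR 4.0.16 on summed UMIs, other scales and filters, thinning, and each embryo left out. The labels place the organs of 1 embryo in 1 animal. Deviations of skin epithelial and skin mesenchymal means of an embryo from the means of their sets correlated over genes with r = 0.098 to 0.47. These deviations still hold the change with day, and the residuals of the fit on day correlated with r = 0.079 to 0.34. The fit with the embryo as a block changed no call of a named gene.

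The 8 genes, the gene lists and the marker lists were chosen with earlier results of these data known, and whether the change with day was among those results is not known for the 8 genes. Named genes are the members, up to 5 called genes per direction and list, up to 3 further genes per list by level, and the 3 genes most like each member, of which some are not reported here. A count of 0 allows up to 3 UMIs or cells. Intervals of shares (Wilson, 95%) concern counting error alone. Gene positions are from GENCODE M21 (GRCm38). Promoters are from RefSeq.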

Additional observations from a re-analysis of the deposited data

Results flagged for a closer look

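In skin epithelial cells, Tfap2a of E9.5 embryo 2 was at 2.44, far from the other 5 embryos (4.59 to 4.89). It was the only such value in 38 groups of embryo values looked at, and chance marks about 1 in 20 groups. The 7 cells of this embryo ran from 0.20 to 5.06 (median 2.95), and this embryo alone of the skin embryos was sequenced on a HiSeq 2500 and is labelled female. The part of these in the value was not tested.

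The slope on day differed between epithelial and mesenchymal skin cells by 2.03 for Cxcl14 and 2.01 for Gjb2, and between skin and other epithelial cells by 3.13 and 2.71, in the test of the difference itself. None of these 4 differences passed in edgeR.

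Cells outside the sets compared also held genes of the list, though not all 8 in each case. Their summed level over the 8 genes was 1160 TPM in 13 skin cells that the authors left out (median 10936 UMIs), 1198 TPM in 3 skin cells of the epithelial group outside the skin epithelial set, 521 TPM in 1 heart cell of the epithelial group, 770 TPM in 1 skin cell without a major group and 105 TPM in 14 mesoderm-derived skin cells outside the mesenchymal set. The heart cell held 0 UMIs of Trp63 and Cxcl14, and the skin cell without a major group 0 UMIs of Tfap2a and Gjb2. In the 14 mesoderm-derived skin cells Tfap2a, Tfap2b and Tfap2c were at 18.7, 41.1 and 29.6 TPM, and Gjb2 had 1 UMI. In the 246 hematopoietic cells of all organs, taken as control, it was 17.5 TPM, of which Perp made up 12.9 TPM. In the 9 hematopoietic cells of the skin it was 44.3 TPM, and 2 of them expressed 5 or more of the 8 genes. The cells outside the sets are single cells or small sets with no replicate check.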

How the results depend on the processing

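Numbers of genes that passed moved more than the calls of Cxcl14 and Gjb2. For the slope in skin epithelial cells 268 genes passed, 79 and 64 in edgeR with TMM and RLE scaling, 125 without the HiSeq 2500 embryos, and 127 to 279 with 1 embryo left out. For skin mesenchymal cells 88 passed, 7 and 10 in edgeR, 49 without the HiSeq 2500 embryos, 8 in skin cells alone, and 52 to 135 with 1 embryo left out. For epithelial minus mesenchymal cells 50 passed, 22 with genes expressed in at least 10% of cells, 1 and 1 in edgeR, 10 without the HiSeq 2500 embryos, 0 in skin cells alone with limma (1185 genes at an unadjusted p under 0.05), and 19 to 53 with 1 embryo left out. For skin minus other epithelial cells 172 passed, 55 and 54 in edgeR, 54 without the HiSeq 2500 embryos, and 74 to 151 with 1 embryo left out. The step from E9.5 to E10.5 had 41 genes, 2 in edgeR, 23 in skin cells alone and 24 to 134 with 1 embryo left out, and the step from E10.5 to E11.5 had 115, 5, 43 and 69 to 145. The share of higher calls, 33.2% in skin epithelial cells, was 20.3% with TMM, 23.0% in skin cells alone and 47.2% without the HiSeq 2500 embryos. In mesenchymal cells it was 70.5%, against 85.7% with TMM, 90.0% with RLE and 37.5% in skin cells alone. With at least 5 cells per mean it went from 64.0% to 47.5% for epithelial minus mesenchymal cells.

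Among the slopes, steps and differences reported here, direction turned for the Perp slope (−0.091 without E9.5 embryo 2 and without the HiSeq 2500 embryos, and −0.091 to 0.35 with 1 embryo left out), for the Cxcl14 difference between epithelial and mesenchymal cells in edgeR (−0.43 with TMM and −0.47 with RLE), and for the Gjb2 step from E9.5 to E10.5 in thinned cells (−0.028). The cause was not tested. Cxcl14, Gjb2, Krt15 and Gjb6 kept the call of their slope in skin epithelial cells in all 19 alternatives. Counted from 1 UMI on, the shares of expressing skin epithelial cells were 100% for Tfap2a and 97.4% for Trp63, and that of Sostdc1 was 100% in thinned cells. With the embryo as replicate block 276, 88, 53 and 180 genes passed in the 4 slope comparisons, and no call of a named gene changed. Keeping the second copies of 14 cells, added after the data were seen, changed no call of a member. Skin has 2 embryos a day, and at this number 22.8% of slopes of 1 per day were recovered when simulated in abundant genes.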
